A study of Homo sapiens with 22 samples.

Results

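The regions described here are 777 places in the genome of K562 cells where the +KTS isoform of WT1 was captured in all 3 replicates and where H3K4me3 was called in both libraries of the same cells. The 3 +KTS capture lists were merged wherever peaks shared at least 1 bp on chromosomes 1 to 22, X and Y, which gave 21167 merged regions with a peak of every list. Of these, 112 were removed because they met a peak from untagged cells, and 59 more because they met a region called in both −KTS capture lists. The untagged lists held only 743, 101 and 311 peaks and the shorter −KTS capture list 3245, against 543203, 373510 and 35455 in the +KTS capture lists. These filters could therefore remove few regions, and passing them does not show that a region is free of background or particular to +KTS. The remaining 20996 are called 3-replicate +KTS regions below. The 777 overlapped at least 1 of the 21612 merged H3K4me3 regions called in both H3K4me3 lists of +KTS cells, and the 796 H3K4me3 regions they met are called hosts. The regions were chosen by their calls in the +KTS capture, −KTS capture, untagged capture and +KTS H3K4me3 lists, so what those lists show of them is a description with no test. The H3K4me3 lists of −KTS cells took no part in the choice.

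K562 is a human cell line from a chronic myeloid leukaemia. All cells stably carried the bacterial biotin ligase BirA from the plasmid pEF1aBirAv5-neo and were grown with G418. The −KTS and +KTS cells also carried FLAG- and biotin-tagged WT1 with the 17 amino acid insert, driven by the EF1a promoter of the plasmid, without or with lysine, threonine and serine (KTS) between zinc fingers. Untagged cells carried the ligase alone. Streptavidin capture gave 2 −KTS, 3 +KTS and 3 untagged libraries, and H3K4me3 immunoprecipitation from the same lysates gave 3 −KTS and 2 +KTS libraries. The tagged protein was added to the cells, so its capture describes an introduced WT1, and the labels do not say whether a line was 1 clone or whether replicates were separate cultures.

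WT1 is a zinc finger protein of the developing kidney and gonad and of blood progenitors, and it is expressed in many leukaemias. The −KTS isoform is known as a transcription factor that binds GC-rich sites, while the +KTS isoform binds such sites less well and is known for binding RNA and for its place in splicing bodies. H3K4me3 is a histone mark laid down at active and poised promoters, where it usually flanks the transcription start. The lists gave no gene names and an hg19 annotation or sequence was not used here, so regions are named by hg19 coordinates, counted from 1, and the cell type was not checked against its markers.

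Few of the regions captured in all 3 +KTS replicates lay at H3K4me3. The 777 were 3.70% of the 20996. Without the untagged and −KTS filters, 3.76% of merged regions of all 3 lists, 5.11% of those of exactly 2 lists and 4.23% of those of exactly 1 list lay at such H3K4me3 regions. The share thus did not rise with the number of replicates. The H3K4me3 lists differed in how many capture regions they met. Of the 20996 regions, 5.12% met a peak of H3K4me3 +KTS replicate 1 and 17.5% a peak of replicate 2. In −KTS cells the 3 H3K4me3 lists met 0.757%, 3.53% and 3.96% of them. Cut to the same 27341 best-scoring peaks each, the +KTS lists met 5.12% and 6.04% and the −KTS lists 0.638%, 1.74% and 2.76%. At equal length both +KTS lists therefore stood above each of the 3 −KTS lists. The 20996 regions were themselves chosen through +KTS capture, with regions of both −KTS capture lists removed, so these shares are a description.

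In the capture lists the 777 regions had higher median scores than 3-replicate regions elsewhere. The score is the peak caller's own value and is compared only within a list, here as the rank of a region's best peak in percent of the list, where 0 is best. The median rank was 17.0% in +KTS capture replicate 1, 15.8% in replicate 2 and 43.3% in replicate 3. For the 12155 regions within 50 kb of a host or other +KTS H3K4me3 region the medians were 21.7%, 35.5% and 47.8%. For the 8064 regions beyond 50 kb they were 26.4%, 41.1% and 50.6%. The order was the same in each of the 3 libraries, and the gap was widest in replicate 2. Quartiles overlapped in all 3 libraries, so many of the 777 scored like regions away from the mark. Of the 777, 38.1% lay in the best 10% of the list of replicate 1, 40.8% in that of replicate 2 and 14.9% in that of replicate 3. For regions within 50 kb these shares were 31.4%, 21.2% and 10.8%, and for those beyond 50 kb 25.5%, 16.3% and 9.16%. The difference was thus largest in replicate 2. Scores ran from 13, the lowest in these lists, to 1306 in replicate 1, 1059 in replicate 2 and 541 in replicate 3, with medians of 93, 101 and 73. The 532 regions that were the only 1 of the 777 in their bin of 1 Mb had medians of 87, 94 and 68. Regions within 50 kb had 86, 73 and 69. Against these, the 532 stood higher in replicate 2, hardly differed in replicate 1 and were not higher in replicate 3. The regions within 50 kb were not limited to 1 per bin, so the 2 sets are not alike.

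**Figure D1:**
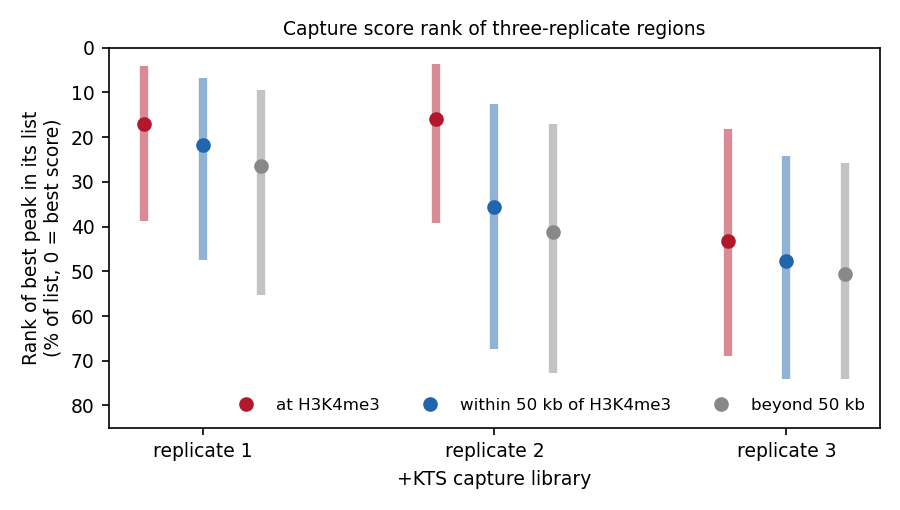
Rank of each region's best peak in its own list (y axis, percent of the list, best at the top) in the 3 +KTS capture libraries (x axis), with medians as points and quartiles as bars. Regions at H3K4me3 had medians of 17.0%, 15.8% and 43.3%, better than regions within and beyond 50 kb of H3K4me3 in each library, with overlapping quartiles.

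A width class held more of the 777 regions than of the rest. Merged regions of at least 700 and under 900 bp made up 305 of the 777 (39.3%), against 10.1% of the regions within 50 kb and 9.06% of those beyond 50 kb. Over all 20996 regions the share was 10.8%. Seen the other way, 13.5% of the 2262 regions in this class lay at H3K4me3, against 2.01% of the narrower regions, 3.76% of those of 900 to under 1200 bp and 4.40% of those of 1200 to under 2000 bp. Among regions of 2000 bp or more it was 9.87%, so the share did not rise steadily with width. The class was seen in the single lists too. In +KTS capture replicate 1 the widest peak of 29.9% of the 777 regions fell in it, against 8.85% of the other 3-replicate regions, and in replicate 2 these shares were 19.7% and 4.28%. In replicate 3, whose peaks had a median width of 222 bp, 0.644% of the 777 and 0.0989% of the others did, so the class was seen in replicates 1 and 2. Left out in turn, +KTS capture replicates 1, 2 and 3 lowered the share of this class among the regions to 22.6%, 30.3% and 18.2%. The share among the other 3-replicate regions, 9.68% with all lists, fell as well, to 4.39%, 6.91% and 8.14%. Without H3K4me3 +KTS replicate 1 it was 17.8%, against 9.29% of the other regions, and with equal lists 23.6%, against 11.9%.

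The same width appeared in 1 H3K4me3 list. Hosts of 700 to under 900 bp were 246 of 796 (30.9%), against 16.2% of the 20816 other H3K4me3 regions of both +KTS lists. The widest peak in H3K4me3 +KTS replicate 2 fell in this class at 31.8% of hosts and 18.1% of the others. In H3K4me3 +KTS replicate 1 the order was the other way round, with 3.77% of hosts and 13.1% of the others. The −KTS lists had 7.54%, 7.16% and 5.66% of the hosts they called and 8.88%, 16.7% and 14.7% of the others. Host width in +KTS cells was therefore not alike in the 2 replicates, and the list names put H3K4me3 replicate 2 beside +KTS capture replicate 3, and H3K4me3 replicate 1 beside capture replicate 2, by a shared code of unstated meaning.

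**Figure D2:**
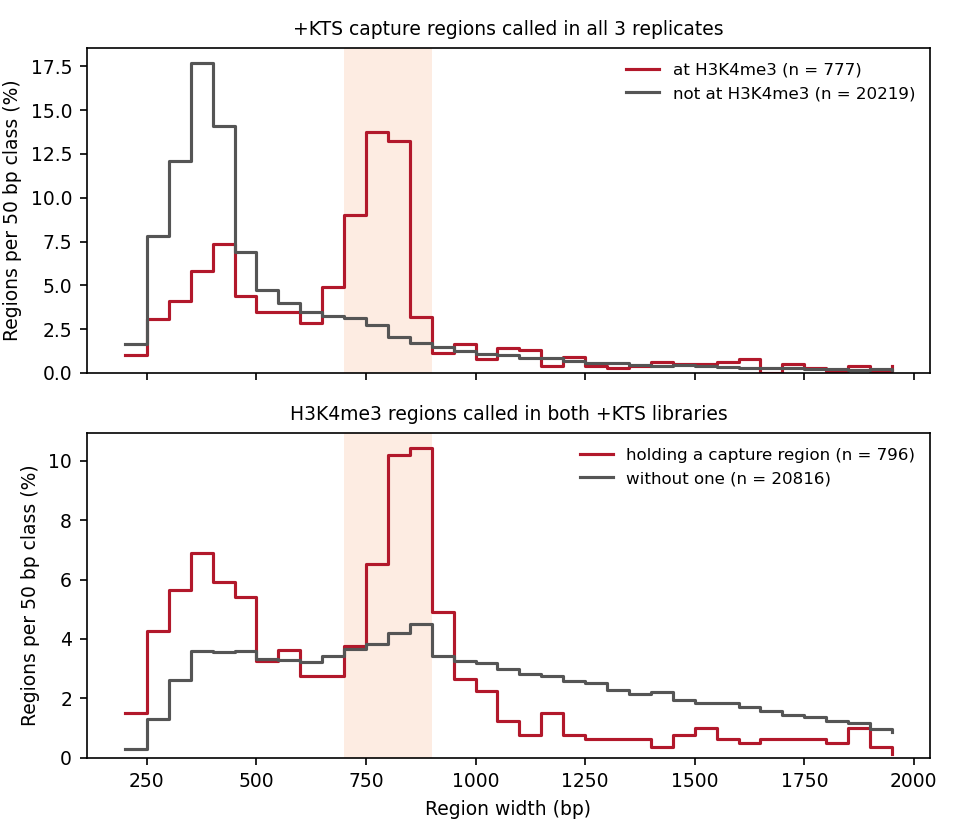
Share of regions (y axis, percent) in each 50 bp class of width (x axis, bp, shown up to 2000) for +KTS capture regions of all 3 replicates (upper panel) and H3K4me3 regions of both +KTS libraries (lower panel). The shaded class of 700 to under 900 bp holds 39.3% of the 777 capture regions at H3K4me3 and 30.9% of their hosts, against 9.68% of the other capture regions and 16.2% of the other H3K4me3 regions.

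Members of this width class were spread over the genome, with up to 31 on a chromosome (chromosome 7) and 0 on Y, and their median gap to the next of the 777 was longer than 1 Mb. The best-ranked of them that −KTS H3K4me3 replicates 2 and 3 also called, but replicate 1 did not, serve as examples and were chosen after the values were seen. The region on chromosome 2 at 205861027 to 205861833 (807 bp) scored 129, 146 and 156 in +KTS capture replicates 1, 2 and 3. Its host, at 205861011 to 205861800, scored 92 and 255 in H3K4me3 +KTS replicates 1 and 2. The midpoints of capture and mark lay 24.5 bp apart. The region on chromosome 7 at 97242993 to 97243810 scored 160, 144 and 141, and its host scored 142 and 675. The region on chromosome 7 at 104203356 to 104204129 scored 168, 142 and 140, and its host scored 120 and 282. Their midpoints lay 131 and 19 bp from those of their hosts, and they shared 716 and 774 bp with hosts of 876 and 856 bp.

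Many of the capture regions lay near the middle of their host. The midpoint of a region lay a median of 50 bp from the midpoint of its host, and 514 of the 777 (66.2%) lay within 100 bp. Scaled so that 0 is the middle of the host and 1 its edge, the median position was 0.16 (quartiles 0.054 and 0.55). The overlap covered a median of 95.6% of the capture region and 91.2% of the host, and in 366 of the 777 (47.1%) it covered at least 80% of both. The median position depended on the lists used. It was 0.59 without H3K4me3 +KTS replicate 2, 0.28 without H3K4me3 +KTS replicate 1, 0.46 without +KTS capture replicate 3 and 0.58 with H3K4me3 in all 5 lists. Of the regions called in exactly 2 +KTS lists, 13503 lay at H3K4me3 regions of both +KTS lists. Their median offset was 266 bp and their median position 0.47, 29.3% lay within 100 bp, and 14.6% covered 80% of both. These regions were not filtered by untagged or −KTS capture. Capture replicate 3 had 35455 peaks and 264125 merged regions were of exactly 2 lists, so most of these joined replicates 1 and 2. They are therefore largely the regions found without replicate 3, and the likeness of 0.47 and 0.46 is no separate result. The gap to 0.16 was not tested.

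The fit was closest in the width class of 700 to under 900 bp. There the median offset was 30.5 bp, the starts of capture region and host differed by a median of 46 bp and the ends by 45 bp, and 81.0% lay within 0.2 of the middle. In the 472 regions of other widths the median offset was 82.5 bp and 37.7% lay within 0.2. At the other end, 89 regions (11.5%) had their midpoint outside the host. Taking the peaks of each capture list alone, the median position in the host was 0.27, 0.31 and 0.34 in replicates 1, 2 and 3. Median offsets were 91.5, 125.5 and 107.5 bp. These values count every peak that met a host, also where several met the same one. The merged regions were counted once each, so their centring is not compared with that of single lists.

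**Figure D3:**
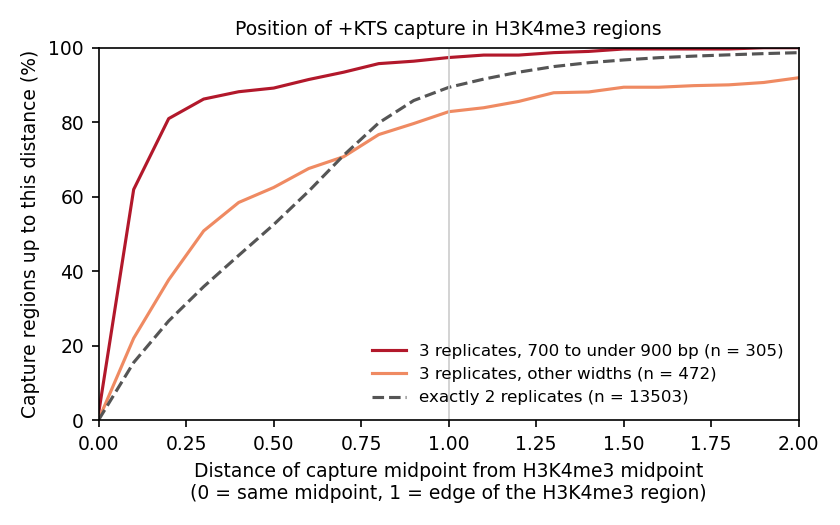
Share of +KTS capture regions at H3K4me3 (y axis, percent, cumulative) whose midpoint lies up to a given distance from the host's midpoint (x axis, 0 for the same midpoint, 1 for the edge). Of the 305 regions of 700 to under 900 bp, 81.0% lie within 0.2, against 37.7% of the 472 of other widths and 26.7% of the 13503 regions called in exactly 2 replicates.

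At the edge of the rule, the shortest overlaps were 40 bp for chr7:73151234-73152478, 43 bp for chr2:32504300-32504874 and 95 bp for chr2:187865966-187867837. Their hosts were called in 2, 2 and 3 of the −KTS H3K4me3 lists. The regions just outside lay 19, 37 and 39 bp from the nearest host or other H3K4me3 region, at chr9:130700552-130701156, chr16:2182751-2184593 and chr7:100660897-100662882. Those 3 scored 62, 105 and 103 in capture replicate 1, 126, 55 and 110 in replicate 2 and 88, 46 and 39 in replicate 3, within the range of the members.

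The hosts carried weaker H3K4me3 calls than the rest of the mark in +KTS cells, above all in replicate 1. Their median score was 101.5 in H3K4me3 +KTS replicate 1, against 646 for H3K4me3 regions without a member, and their best peak ranked at 72.7% of the list against 38.7%. In replicate 2 the medians were 252 and 398, with ranks of 30.3% and 21.2%. Hosts were also narrower, with a median of 789.5 bp against 982 bp. With the 21612 H3K4me3 regions split by score into 4 groups of like size, group 1 being the lowest, 69.8% of the hosts fell in group 1 of replicate 1, which ended at a score of 175, and 37.8% in group 1 of replicate 2. Group 4 of replicate 1 held 45 of the 796. Most hosts were therefore weak calls in replicate 1.

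In −KTS cells, the hosts were called less often than other H3K4me3 regions in each of the 3 libraries. These lists had no part in choosing the hosts. Over all 21612 H3K4me3 regions of both +KTS lists, −KTS replicates 1, 2 and 3 called 56.9%, 89.3% and 90.4%. Replicate 1 called 199 of the 796 hosts (25%, exact Clopper-Pearson 95% interval 22% to 28.2%) and 58.1% of the 20816 others. Replicate 2 called 503 hosts (63.2%, 59.7% to 66.6%) and 90.3% of the others, and replicate 3 called 530 hosts (66.6%, 63.2% to 69.9%) and 91.3% of the others. The mean difference, hosts minus others, was −28.3 percentage points ± 4.32 (SD, n = 3), and all 3 libraries had the same sign. The two-sided exact sign-flip permutation test over the 3 libraries gave p = 0.25, the smallest it can give, so this design cannot pass 0.05. The difference was −4.93 points without +KTS capture replicate 3, where 13810 regions take the place of the 777.

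The gap varied with the strength of the H3K4me3 call. Within group 1 of score in H3K4me3 +KTS replicate 1, −KTS replicates 1, 2 and 3 called 10.1%, 51.1% and 55.6% of the 556 hosts and 32.4%, 69.4% and 69.0% of the others. In group 2 they called 46.9%, 87.5% and 88.8% of 160 hosts and 39.9%, 90.2% and 94.1% of the others. In group 3 they called 80%, 97.1% and 97.1% of 35 hosts and 67.6%, 99.6% and 99.9% of the others, so in −KTS replicate 1 hosts were called more often in groups 2 and 3. In group 4 the shares were close, with 88.9%, 100% and 100% of 45 hosts against 89.7%, 100% and 99.98% of the others. Split by the score in H3K4me3 +KTS replicate 2 instead, hosts were called less often in every group by each −KTS library. For −KTS replicate 1 the shares in groups 1 to 4 were 4.65%, 17.9%, 40.8% and 78.8%, against 20.5%, 45.4%, 74.3% and 90.5% of the others. Weighting the other regions to the spread of the hosts over 10 classes of the score in H3K4me3 +KTS replicate 1 reduced the mean difference to −11.6 points. Weighting over 10 classes of the score in replicate 2 or of the region's width gave −21.0 and −21.3 points. The sign was negative under each weighting, with the same exact permutation p of 0.25, and how far score and width account for the difference was not tested further.

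**Figure D4:**
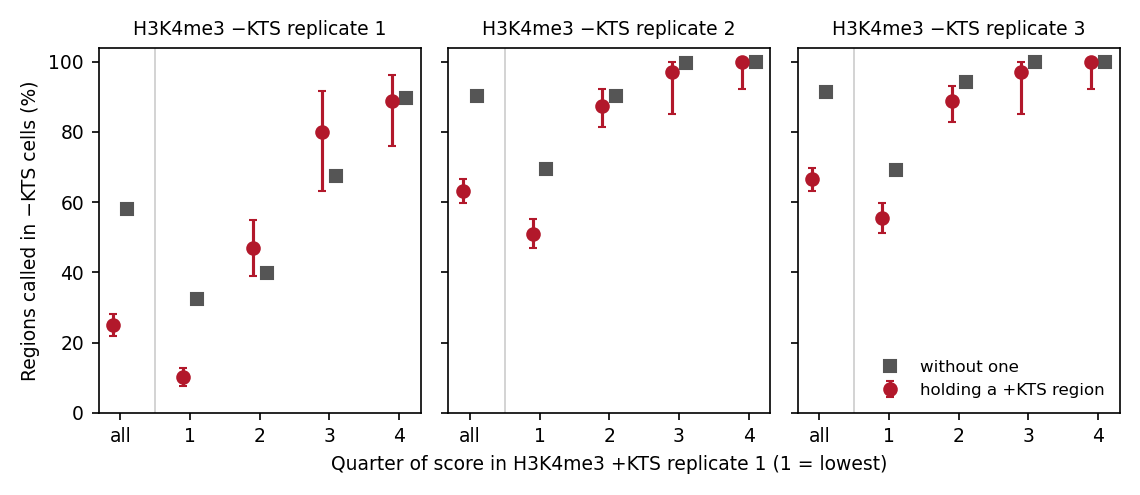
Share of H3K4me3 regions of both +KTS libraries that were also called in each −KTS library (y axis, percent), for all regions and by score group in H3K4me3 +KTS replicate 1 (x axis, 1 lowest to 4 highest). Points with bars are hosts of +KTS capture regions with exact 95% binomial intervals, and squares are H3K4me3 regions without one. Hosts are lower over all regions and in group 1 of each panel, and in group 4 both lie at 88.9% or more.

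Counted by library, 232 hosts (29.1%) were in no −KTS list, against 6.04% of the other H3K4me3 regions and 6.89% of all 21612. Hosts in all 3 −KTS lists were 180 (22.6%), against 56.9% of the others and 55.7% of all. A further 308 hosts (38.7%) were in exactly 2 lists, against 32.2% of all, and 76 (9.55%) in exactly 1, against 5.28% of all. The share in no −KTS list depended on the +KTS lists. Leaving out H3K4me3 +KTS replicate 1 gave 77.6% of hosts and 46.1% of others. Leaving out replicate 2 gave 50.9% and 12.3%, and leaving out +KTS capture replicate 3 gave 9.06% and 4.14%. Hosts stood above the others in each of these. The lowest score was 50 in the −KTS lists and 13 in the +KTS lists, and with all peaks at 50 or more the shares were 26.8% and 4.51%.

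The 777 regions differed among themselves along this line. Taking the host that each region overlaps most, 214 had a host in no −KTS list, 75 in 1, 308 in 2 and 180 in 3. Of the 308, 299 were in replicates 2 and 3 and not in replicate 1. The width class of 700 to under 900 bp made up 204 of the 308 (66.2%), but 27 of the 214 in no list (12.6%) and 56 of the 180 in all lists (31.1%). Read by class, −KTS replicates 1, 2 and 3 called the hosts of 57, 263 and 274 of the 305 regions of this width, and of 142, 240 and 255 of the 472 others. This class was thus shared more often in replicates 2 and 3, at 86.2% and 89.8% against 50.8% and 54.0%, and less often in replicate 1, at 18.7% against 30.1%.

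Regions whose host was in no −KTS list had the strongest capture. The median scores in capture replicates 1, 2 and 3 were 134.5, 130.5 and 83.5 for the 214 regions, against 85, 94 and 70.5 for the 308 in 2 lists and 92, 102 and 69 for the 180 in all 3. Their H3K4me3 scores ran the other way. The median was 71.5 in H3K4me3 +KTS replicate 1 for the 214 and 426 for the 180, and 91.5 and 622 in replicate 2. With the 777 ranked by their worst rank over the 3 capture lists, 80 of the best 195 (41.0%) had a host in no −KTS list, against 45, 41 and 48 of the next 3 groups of 194.

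The width of H3K4me3 peaks at the hosts is given as a description, because the +KTS lists chose the hosts. Relative to the median width of its own list, the median covered length at hosts was 1.80, 1.23 and 1.47 in H3K4me3 −KTS replicates 1, 2 and 3, over the 199, 503 and 530 hosts they called. In +KTS replicates 1 and 2 it was 0.55 and 2.09. The −KTS libraries lay between the +KTS libraries. The means were 1.5 ± 0.289 (SD, n = 3) and 1.32 ± 1.09 (SD, n = 2), a difference of −0.18. In bases, not scaled by list and over the hosts each list called, the medians were 356 and 772.5 bp in +KTS and 359, 439 and 485 bp in −KTS cells. On this measure +KTS replicate 2 stood apart from the other 4, whereas scaled by list both +KTS replicates lay outside the −KTS values.

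Many of the 777 regions also had a −KTS capture peak, within what the rule allows. −KTS capture replicate 1, a list of 154732 peaks, had a peak at 387 of them (49.8%, exact 95% interval 46.2% to 53.4%), against 39.4% of all 20996, 41.4% of regions within 50 kb and 35.3% of those beyond. −KTS replicate 2, with 3245 peaks, met 2 of the 777 (0.257%), against 0.0572% of all 20996. The rule had removed regions that met a −KTS region called in both lists, so these shares are bounded by it. The 2 were chr3:50576904-50578728 and chrX:7164280-7164734, and both hosts were in no −KTS H3K4me3 list. In the width class of 700 to under 900 bp, −KTS capture replicate 1 met 42.0% of the 305 regions and 27.6% of the 3-replicate regions away from H3K4me3, and in the other widths 54.9% and 40.2%. In both width groups the regions at H3K4me3 met this list more often, and no test was made because capture calls chose them. When any −KTS capture peak removed a region, 388 were left.

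Along the genome most of the 777 stood alone. They lay in 618 bins of 1 Mb, of which 532 held 1 region, and the median gap to the next was 1074520 bp. Chromosome 1 had the most (78), followed by chromosomes 7 (68) and 2 (56). Relative to the 3-replicate regions of each chromosome, 8.75% of those of chromosome 13 were at H3K4me3, followed by 6.57% on chromosome 8, 6.38% on X and 5.86% on chromosome 22, against 3.26% on chromosome 1. A group of 16 bins held 4 or more regions each and 97 in all. The 97 had higher capture scores, with medians of 353, 352 and 136, than the 532 single ones, with 87, 94 and 68. They were wider, with a median of 1384 bp against 742 bp. Of the 97, 56 (57.7%) had a host in no −KTS H3K4me3 list and 78 (80.4%) a peak of −KTS capture replicate 1, against 22.7% and 44.5% of the 532.

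Chromosome 22 between 17 and 24 Mb held 44 of the 777 (5.66%), against 4.14% of the 3-replicate regions within 50 kb of H3K4me3 and 0.918% of those beyond. The untagged lists were dense here too, with 3.5%, 2.97% and 11.9% of their peaks in this segment. The −KTS capture lists had 2.98% and 1.79% of their peaks here, and the +KTS capture lists 0.718%, 0.992% and 2.40%. Of the 44 regions, 7 had an untagged peak within 10 kb, against 14 of the 733 elsewhere. Over all 777 regions the share was 2.70%, and over regions within 50 kb of H3K4me3 it was 1.97%. The part of this background in the result was not tested. Median capture scores of the 44 were 432, 440.5 and 136.5, against 91, 99 and 72 for the 733 regions elsewhere. All 13 regions between 23 and 24 Mb had a host in no −KTS H3K4me3 list, whereas 6 of the 9 between 20 and 21 Mb had one in all 3. Leaving the segment out changed the mean difference between hosts and other H3K4me3 regions from −28.3 to −26.7 points.

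The 12 regions with the best worst rank over the 3 capture lists came from 4 chromosomes. Of these 12, 9 had a host in no −KTS H3K4me3 list and 11 had a peak of −KTS capture replicate 1, and none was in the class of 700 to under 900 bp. The top one lay on chromosome 22 at 23466706 to 23467210 and scored 919, 748 and 431 in capture replicates 1, 2 and 3. Its host of 263 bp lay wholly inside it and scored 155 and 92 in H3K4me3 +KTS replicates 1 and 2, and an untagged peak lay 1986 bp away. On the same chromosome the region at 21634227 to 21635316 scored 467, 380 and 315, and its host, with a midpoint 1.5 bp away, scored 188 and 497 and was called in −KTS replicate 3 with a score of 171. The region at 23559882 to 23562884 scored 981, 630 and 280 with a host of 360 bp, and that at 20406270 to 20409899 scored 343, 445 and 233 with a host of 1651 bp. Both of these hosts were in no −KTS list.

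Chromosome 5 gave 5 of the 12, in separate sets of 3 and 2. Between 17 and 18 Mb lay 7 of the 777 regions, which were 7 of 17 3-replicate regions there. The regions starting at 17520557, 17523959 and 17527424 were 2104, 2111 and 2036 bp wide, and successive starts were 3402 and 3465 bp apart. The other 2 started at 17593711 and 17597233, 3522 bp apart, and were 2214 and 2404 bp wide. Between the sets lay 1 more region, whose start was 53240 bp after the last start of the first set and 13047 bp before the first start of the other. Just before the first set lay a further region outside the 12. It started at 17517586, 2971 bp before the first start of that set, and was 1641 bp wide. The first of the 5 that were among the 12 scored 516, 611 and 408 in capture replicates 1, 2 and 3. The second scored 684, 621 and 343, and the third 420, 404 and 371. The others scored 1009, 500 and 541, and 901, 802 and 335. Scores were high in all 3 lists, and the best of any of the 777 in replicate 3 was among them. Their hosts were 467 to 950 bp wide, scored 70 to 209 in H3K4me3 +KTS replicate 1 and 137 to 230 in replicate 2, and were in no −KTS list. All 7 regions of this bin had a peak of −KTS capture replicate 1.

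The remaining 3 of the 12 lay on chromosomes 13 and 4. The region on chromosome 13 at 91080610 to 91081192 scored 693, 639 and 259 and was the only one of the 12 without a −KTS capture peak, and its host was in no −KTS H3K4me3 list. That at 93859047 to 93859604 scored 661, 462 and 246. Its host was the only one among the 12 that all −KTS lists called, with scores of 88, 233 and 226. The region on chromosome 4 at 49286906 to 49287581 scored 331, 389 and 228 at the edge of a host of 2902 bp, whose score of 2466 in H3K4me3 +KTS replicate 2 was the highest of any host. The bin from 49 to 50 Mb on this chromosome held 7 of the 777 among 11 3-replicate regions.

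Some regions were runs of peaks. There were 53 regions of 2000 bp or more (6.82%, against 3.18% within 50 kb and 1.22% beyond). Of these, 30 (56.6%) had a host in no −KTS list, against 214 of all 777. On chromosome 22 between 17 and 24 Mb, where 28 of 44 regions had such a host, lay 14 of the 53. The widest, 20536 bp on chromosome 12 at 34534075 to 34554610, joined 6 peaks of capture replicate 1, 17 of replicate 2 and 1 of replicate 3, where it scored 24. On chromosome 1, 6 regions between 2583460 and 2631995, from 1449 to 12661 bp wide, scored 388 to 568 in replicate 1, 174 to 360 in replicate 2 and 103 to 160 in replicate 3. Hosts of all 6 were in no −KTS list. No host held more than 2 of the 777. The longest of the 5 that held 2 were chr22:20066568-20069172, chr17:21902873-21905050 and chr22:20254778-20256636, and all −KTS lists called each of these 3.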

How the data were processed

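The authors deposited 1 peak list per library, which gives each peak's position and a score in whole numbers. Bowtie2 2.2.7, MACS2 2.1.1.20160226 and hg19 are named per the submitters' processing notes. How peaks were controlled and filtered was not given in the sources used here. The lowest score was 50 in lists from −KTS cells and 13 in all others, and what the score measures is not known. Read depth is unknown from the lists, and no depth interval is given. Lists held 101 to 543203 peaks on the chromosomes used. Of 22 libraries, 13 had a list, and 9 inputs were not analysed here.

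Regions were merged and overlapped with pandas 2.3.3 and numpy 2.4.6 under Python 3.11.15, checked against bedtools 2.31.1 and on simulated lists. Shares have exact Clopper-Pearson 95% intervals, which cover counting error over regions only. −KTS H3K4me3 libraries were compared with an exact sign-flip permutation test, and because replicates may be technical, its p-values speak only of the spread among these libraries. The members and the settings were chosen with earlier results of these data known. Regions named were the 12 with the best worst rank over the 3 +KTS capture lists, the best 5 in no −KTS H3K4me3 list (all among the 12), the 3 hosts with most members and 3 regions on each side of the rule's edge. Others named were chosen after their values were seen, as was the class of 700 to under 900 bp. The planned permutation test of host widths is not reported, because +KTS H3K4me3 calls chose the hosts. Planned searches for motifs and genes were not run, because an hg19 sequence or annotation was not used here.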

Additional observations from a re-analysis of the deposited data

How the results depend on the processing

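The main values were 777 regions, 3.70% of 3-replicate regions, a mean difference of −28.3 points between hosts and other H3K4me3 regions, a width difference of −0.18 and a median position of 0.16. The difference of −28.3 points kept its sign under all 26 settings tried. Keeping peaks scoring 50 or more gave 431 regions (4.27%), and equal lists gave 123 (5.85%) with a median position of 0.32. Removing regions of any −KTS list gave 388 (3.05%), and asking for H3K4me3 in all 5 lists gave 206 (0.981%) with a position of 0.58. Of settings added after seeing the data, only capture regions of 700 to under 900 bp gave 305 (13.5%), a position of 0.071 and a reversed width difference of 0.18, and only other widths gave 472 (2.52%) and 0.29. With each library left out in turn, there were 390 to 13810 regions, 2.74% to 17.5%, differences of −36.4 to −4.93 points, width differences of −1.09 to −0.028 and positions of 0.13 to 0.59. The extremes of the number came without −KTS capture replicate 2 (390) and without +KTS capture replicate 3 (13810), and it was 3671 without H3K4me3 +KTS replicate 1. The share of regions of 700 to under 900 bp was 17.8% to 45.4%, against 4.39% to 11.5% of other regions. With a replicate block on the numbers 1 and 2 that H3K4me3 libraries of both cells share, the width difference was −0.20. The labels do not say that these numbers pair the samples. The cause of these shifts was not tested.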
